A study of Saccharomyces cerevisiae with 18 samples.

Results

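Engineered forms of the yeast glucose-sensing kinase were compared in cultures sampled at 5 g/L glucose: a fusion with the mammalian catalytic domain (the Alpha1 strain) and Snf1 without its activation site (the T210A strain). The comparison takes 3 arrays from Alpha1 cultures and 3 from T210A cultures, which are 6 of the 18 arrays in the study. The arrays were picked by strain and glucose label, though the comparison itself was chosen with earlier results of these data known. Each of 5449 genes was represented by 1 probe set. The Alpha1 strain was a snf1Δ mutant with plasmid HA-Alpha1, which joins the catalytic domain of the Alpha1 subunit of AMP-activated protein kinase (AMPK) to the regulatory domain of Snf1. The T210A strain was a snf1Δ mutant with plasmid HA-T210A, in which threonine 210 of Snf1 is replaced by alanine. A snf1Δ strain with plasmid HA-Snf1 is given beside them where its level helps to place the others. All 3 strains therefore lacked the chromosomal SNF1 gene and depended on a plasmid, and all grew with air in bioreactors of 1 litre, at 30 °C and a pH of 5.0, from 40 g/L glucose. Arrays of the same strains at 15 to 20 g/L glucose served to ask whether a strain difference was also present at the higher level. The labels call the samples steady state and the replicates biological, and say no more about how the cultures were related. Unless the fit is said to be of the 6 arrays alone, the p-values rest on the spread within groups, pooled over the 18 arrays.

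Snf1 is the yeast member of the AMPK family. It is switched on when glucose runs low, by phosphorylation of a threonine in its activation loop, and is then needed for the use of other sugars, for growth on non-fermentable carbon sources and for the control of lipid synthesis. It acts in part by removing the repressor Mig1 from glucose-repressed genes and by switching on activators such as Cat8 and Adr1. Changing the activation-loop threonine to alanine removes the site at which the upstream kinases act.

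All levels below are log2 signals, so a difference of 1 is 2-fold, and each difference is Alpha1 minus T210A ± SE from limma, with n = 3 arrays in each group. Genes with a limma adjusted p below 0.05, over all 5449 genes, are termed called. Outside chromosome VIII, 2078 of 5188 genes were called (40.1%), with 1125 higher in Alpha1 (21.7%) and 953 lower (18.4%). The arrays of the strains did not overlap for 43.5% of all genes. Many of these differences were small. Of the higher genes 119 differed by at least 2-fold and 16 by at least 4-fold, and of the lower genes 201 and 42 did so. The same strains at high glucose gave 158 calls outside chromosome VIII (3.05%). Chromosome VIII behaved differently from the other chromosomes and is described after the gene groups.

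The 3 Alpha1 cultures at low glucose were less alike than those of any other group. The median gene had an SD of 0.22 in Alpha1 at low glucose, against 0.10 in T210A at low glucose and 0.11 to 0.13 in the other 4 groups of the study. Arrays correlated across genes at 0.978 to 0.984 within Alpha1 and at 0.996 to 0.998 within T210A. A gene that varied among the Alpha1 cultures therefore has a larger error than its pooled SE shows. When the 6 arrays were fitted alone with the replicate number as a block, 607 genes outside chromosome VIII were called. Where the 6 arrays fitted alone, with or without that block, ended the call of a named gene, it is said beside the gene.

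The gene that the plasmids carry was read first. The SNF1 probe set (YDR477W, chromosome IV) read 12.97, 13.17 and 12.69 in the Alpha1 cultures, against 9.26, 9.52 and 9.16 in the T210A cultures and 8.44, 8.74 and 8.53 in Snf1 cultures. The groups lay far apart, with a 12.4-fold difference between Alpha1 and T210A (3.63 ± 0.13, adjusted p = 7.03e-10). At high glucose the difference was 5.29, and the difference between the glucose levels was itself called (-1.65). Which part of SNF1 the probe set reads is not given in the sources used here, so its signal is no test of the deletion. URA3, which acts in pyrimidine synthesis and often serves as a marker on plasmids, read 11.93, 11.68 and 11.77 in Alpha1, against 10.91, 10.91 and 11.04 in T210A (0.84 ± 0.07, adjusted p = 1.20e-06). DET1 (YDR051C), which is named for a part in ergosterol transport, had the largest called increase outside chromosome VIII. It read 13.07, 13.21 and 13.32 in Alpha1, against 8.45, 8.41 and 8.62 in T210A and 8.06, 8.19 and 8.19 in Snf1. This 26.1-fold difference (4.71 ± 0.11, adjusted p = 5.69e-12) was also present at high glucose (4.23). The neighbouring gene TPI1, which encodes triose phosphate isomerase, read 13.13, 13.23 and 13.26 in Alpha1 and 13.29, 13.17 and 13.25 in T210A, and it was not called.

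**Figure D1:**
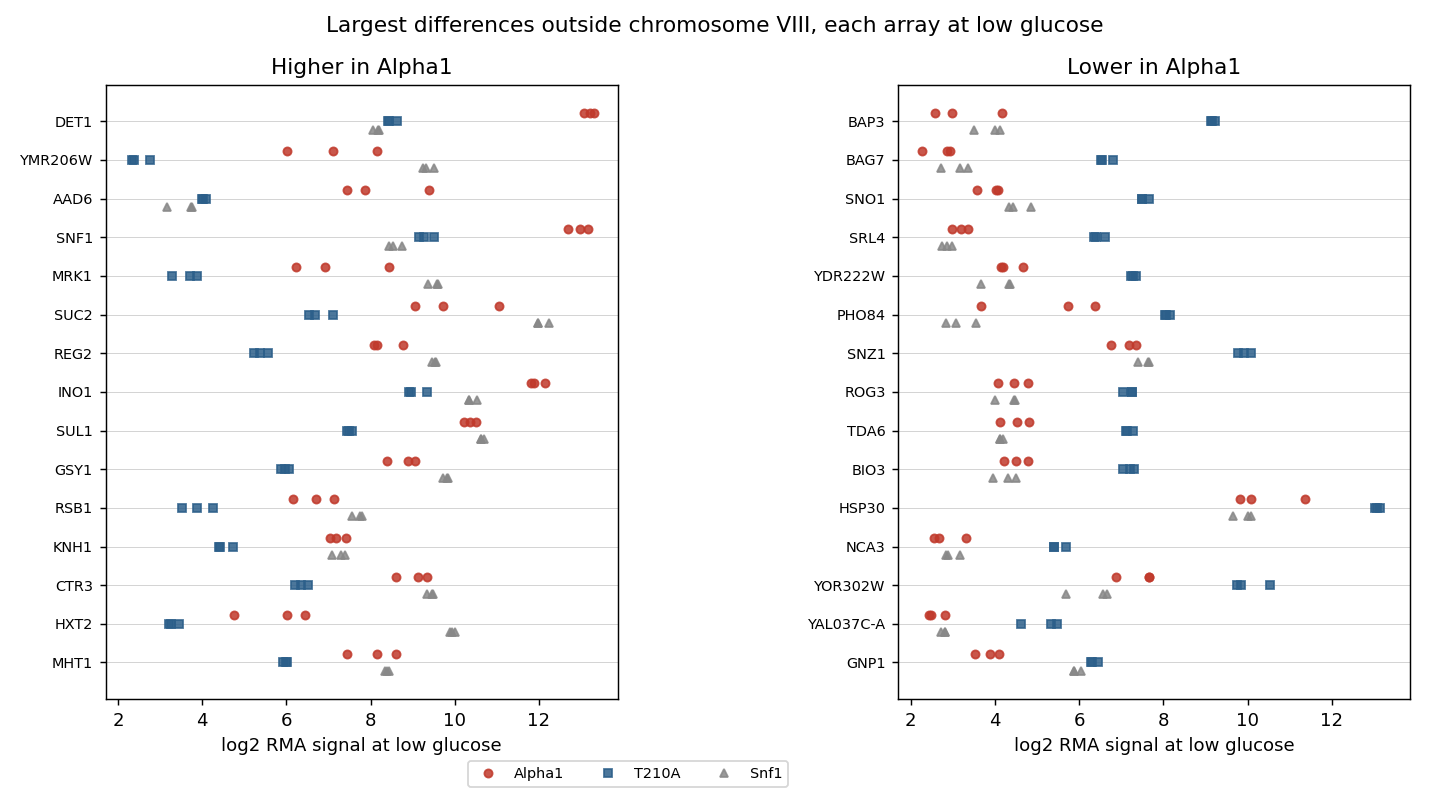
Log2 signals at low glucose for the 15 genes with the largest called increase (left panel) and the 15 with the largest called decrease (right panel) outside chromosome VIII. Each circle is an Alpha1 array, each square a T210A array and each triangle a Snf1 array, and the Alpha1 and T210A points of each gene do not overlap; several Alpha1 signals in the right panel are close to the lowest values of the arrays.

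Some genes for sugar use were higher in the fusion strain. SUC2 (YIL162W), which encodes invertase and is the classic glucose-repressed gene, read 9.73, 9.05 and 11.05 in Alpha1, against 6.68, 7.12 and 6.54 in T210A. All Alpha1 cultures lay above all T210A cultures, and replicate 3 lay closest to the Snf1 cultures, which read 11.98, 12.24 and 11.97. The difference was 8.97-fold (3.16 ± 0.37, adjusted p = 1.59e-05), and it was 2.61 without Alpha1 replicate 3. At high glucose it was 0.20, and the change between glucose levels was called (2.96, adjusted p = 0.00127). HXT2, a high-affinity glucose transporter gene, read 6.45, 4.76 and 6.02 in Alpha1, against 3.26, 3.20 and 3.45 in T210A (2.44 ± 0.31, adjusted p = 3.06e-05). The Snf1 cultures, at 9.90, 10.01 and 9.92, stood well above both. In the 6-array fit with the replicate block the adjusted p from limma was 0.0636 for SUC2 and 0.0514 for HXT2.

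Of 15 hexose transporter and sensor genes outside chromosome VIII, 6 were higher (40.0%) and 1 was lower (6.67%). Over all genes outside chromosome VIII 21.7% were higher and 18.4% lower. The list had a median of 0.25 against 0.01 for all those genes, and the 6-array fit left 3 higher. The high-affinity transporter gene HXT7 read 11.74, 10.55 and 12.11 in Alpha1, against 10.20, 10.12 and 10.12 in T210A. Its sequence is nearly identical to that of HXT6, so the signal may come from both. The sensor gene SNF3, for low glucose, was 1.73-fold higher (0.79), and the sensor gene RGT2, for high glucose, was 1.43-fold lower (-0.51). HXT9 (1.30) and the mannitol dehydrogenase-like gene DSF1 (1.17) were also higher. The calls of HXT7, DSF1 and RGT2 were lost when the 6 arrays were fitted alone, and those of HXT9 and SNF3 when the replicate block was added to that fit. HXT1, the low-affinity transporter gene, lies on chromosome VIII and read 3.94, 4.73 and 3.47 in Alpha1, against 5.36, 5.60 and 5.54 in T210A (-1.45 ± 0.21), a call lost in the 6-array fit with the block. The median difference over the genes of that chromosome was -0.61.

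Of 4 hexose kinase genes 3 were higher. HXK2, which encodes the main hexokinase on glucose and also takes part in repression, read 11.35, 11.60 and 11.08 in Alpha1, against 10.01, 10.43 and 10.19 in T210A (1.13 ± 0.14, adjusted p = 3.56e-05). HXK1, a hexokinase gene repressed by glucose, read 12.61, 12.28 and 12.84 in Alpha1, against 11.36, 11.68 and 11.48 in T210A (1.07 ± 0.27). EMI2, related to glucokinase, was 1.43-fold higher, but its groups overlapped. The glucokinase gene GLK1 was not called (0.25, adjusted p = 0.41 by limma), but it was called higher without Alpha1 replicate 1 (0.53, adjusted p = 0.0342). Of 15 genes for sucrose, maltose and galactose use 4 were higher (26.7%), near the 21.7% over all genes outside chromosome VIII. The 6-array fit left 3 higher. None was lower by limma (2 were at an unadjusted p under 0.05), though 2 were lower without Alpha1 replicate 2 or 3. The higher ones included SUC2 and the galactose regulator GAL3 (1.05). PGM2, the phosphoglucomutase gene, read 10.89, 10.86 and 11.30 in Alpha1, against 9.68, 10.21 and 9.88 in T210A (1.10). The maltase gene MAL32 read 9.61, 8.67 and 10.53 in Alpha1, against 9.30, 9.52 and 9.29 in T210A, and the T210A values lay inside the Alpha1 range. It was called higher only without Alpha1 replicate 2 (0.70, adjusted p = 0.0248 by limma). The call of EMI2 was lost in the 6-array fit, and those of HXK1, GAL3 and PGM2 when the block was added.

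The repressors that act with Snf1 did not move as one. Of 10 repressor genes 5 were higher and 1 was lower, with a median of 0.30. MIG1, the repressor that Snf1 inactivates, read 7.46, 7.41 and 7.55 in Alpha1, against 5.60, 5.79 and 5.75 in T210A and 7.69, 8.02 and 7.93 in Snf1. The groups were tight and apart, with a 3.39-fold difference (1.76 ± 0.13, adjusted p = 2.97e-07). NRG2, which encodes another repressor of glucose-repressed genes, was higher (1.02), and its relative NRG1 was lower, with 8.33, 8.08 and 8.16 in Alpha1, against 9.24, 9.19 and 9.29 in T210A (-1.05 ± 0.07). The corepressor genes TUP1 (0.58) and CYC8 (0.36) were higher. The call of CYC8 was lost in the 6-array fit and that of NRG2 in the same fit with the block. MIG2 read 5.66, 6.55 and 5.08 in Alpha1, against 5.90, 5.73 and 5.89 in T210A, with no call. Without Alpha1 replicate 2 it was called lower (-0.47, adjusted p = 0.0331 by limma).

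Among 16 genes for the Snf1 complex, its upstream kinases and its phosphatase, 4 were higher and 1 was lower. The higher genes include SNF1 itself, which the plasmids carry and whose signal is described above. REG2, which encodes a regulatory subunit of the Glc7 phosphatase, read 8.07, 8.15 and 8.76 in Alpha1, against 5.24, 5.38 and 5.55 in T210A and 9.45, 9.56 and 9.54 in Snf1. It was 7.67-fold higher (2.94 ± 0.17, adjusted p = 3.55e-08). MTH1, a corepressor gene in glucose sensing, was 2.54-fold higher (1.35), and SNF4, which encodes the gamma subunit of the complex, 1.33-fold higher (0.42). TOS3, which encodes 1 of the kinases that phosphorylate Snf1, read 4.90, 7.54 and 5.86 in Alpha1, against 7.84, 8.06 and 7.95 in T210A (-1.85 ± 0.45). Its Alpha1 cultures were spread over a wide range below T210A, and the calls of TOS3 and SNF4 were lost when the 6 arrays were fitted alone.

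Genes for the switch to non-fermentable carbon did not share a direction. CAT8, an activator of gluconeogenic genes, read 4.94, 4.76 and 5.64 in Alpha1, against 4.24, 4.18 and 4.51 in T210A, and 6.82, 6.81 and 6.92 in Snf1. It was 1.75-fold higher (0.81 ± 0.17, adjusted p = 0.0017 by limma), a call that was lost in the 6-array fit (adjusted p = 0.0831). ADR1, an activator of ethanol and fatty acid use, read 2.75, 3.28 and 3.26 in Alpha1, against 2.75, 2.77 and 2.75 in T210A, with both means close to the lowest values of the arrays. HAP4, which encodes the activating subunit for respiratory genes, read 10.39, 10.17 and 10.46 in Alpha1, against 10.19, 10.38 and 10.19 in T210A. The difference of 0.09 was not called (adjusted p = 0.451 by limma). Of 16 genes in the activator list 5 were higher and 4 lower. By limma the 6-array fit left 0 higher and 3 lower, with 4 in each direction at an unadjusted p under 0.05. XBP1 (0.85), which the list includes although it encodes a repressor, was among the higher ones. SIP4 (-0.70), ERT1 (-0.64) and PIP2 (-1.30) were among the lower ones. XBP1 lost its call in the 6-array fit, and SIP4, ERT1 and PIP2 did so with the block.

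The lactate permease gene JEN1 read 5.38, 5.13 and 7.24 in Alpha1, against 5.64, 5.38 and 5.44 in T210A and 9.87, 9.75 and 9.97 in Snf1. Only Alpha1 replicate 3 lay above the T210A cultures. The difference of 0.43 ± 0.38 was not called, and it was -0.23 without that culture. ADH2, the ethanol-oxidizing alcohol dehydrogenase gene, and FBP1, the gene for fructose bisphosphatase, were close to the lowest values of the arrays in both strains. ADH2 read 2.69, 2.52 and 2.47 in Alpha1, against 2.69, 2.62 and 2.69 in T210A. FBP1 read 2.32, 2.78 and 2.73 in Alpha1, against 2.33, 2.46 and 2.81 in T210A. Neither was called, but ADH2 was called lower without Alpha1 replicate 1 (-0.17, adjusted p = 0.0272 by limma).

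Of 21 genes for gluconeogenesis and the glyoxylate cycle 1 was higher (4.76%) and 8 were lower (38.1%), with a median of 0.02. The shares over all genes outside chromosome VIII were 21.7% and 18.4%. PCK1, which encodes the gluconeogenic enzyme phosphoenolpyruvate carboxykinase, read 4.95, 5.60 and 5.53 in Alpha1, against 6.15, 5.84 and 6.15 in T210A (-0.69 ± 0.16). MLS1 of the glyoxylate cycle was not called (0.06), and ICL1 was only just called (-0.39, adjusted p = 0.0493 by limma), with overlapping groups and a call that was lost in 10 alternatives. PYC1, a pyruvate carboxylase gene of the first step of gluconeogenesis, read 10.42, 10.78 and 10.47 in Alpha1, against 11.65, 11.70 and 11.64 in T210A (-1.10 ± 0.08, adjusted p = 2.33e-07). Its paralog PYC2, counted with the pyruvate genes, was also lower (-0.91), a call lost in the 6-array fit with the block. CIT2, the peroxisomal citrate synthase gene, read 10.19, 10.54 and 9.98 in Alpha1, against 11.82, 12.01 and 12.01 in T210A (-1.71 ± 0.12, adjusted p = 2.15e-07). MAE1, the malic enzyme gene, read 7.72, 7.16 and 6.91 in Alpha1, against 8.85, 9.07 and 8.89 in T210A (-1.67). VID24 (-1.57) encodes a factor for the degradation of gluconeogenic enzymes, and CIT3 (-1.19) a mitochondrial citrate synthase. Of 18 genes for lactate, acetate and ethanol use 4 were higher and 4 lower (22.2% each), or 7 and 4 without Alpha1 replicate 1. The acetaldehyde dehydrogenase genes ALD6 (1.45) and ALD4 (1.31) and the lactate dehydrogenase gene CYB2 (0.52) were among the higher ones. The calls of PCK1 and ALD6 were lost in the 6-array fit, and those of CIT3, ALD4 and CYB2 with the block.

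**Figure D2:**
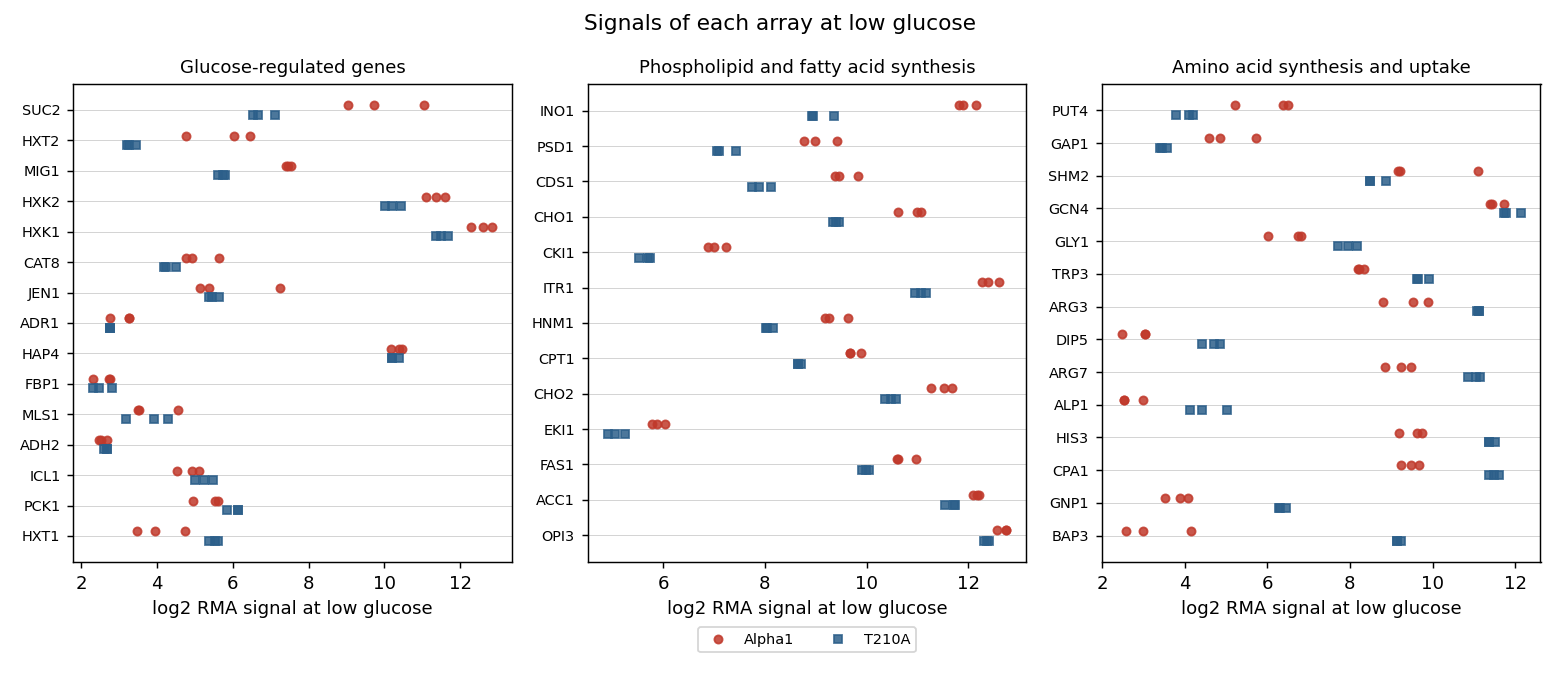
Log2 signals at low glucose of each Alpha1 array (circles) and T210A array (squares) for glucose-regulated genes, genes of phospholipid and fatty acid synthesis, and genes of amino acid synthesis and uptake. SUC2 and HXT2 are spread among Alpha1 cultures, while INO1 and MIG1 are tight in both strains; FBP1, ADH2 and ADR1 lie at the low end in both.

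Fatty acid breakdown and respiration had more lower than higher genes. Of 23 genes for beta-oxidation and the peroxisome 1 was higher and 11 were lower (47.8% lower), with a median of -0.42. YAT2, a carnitine acetyltransferase gene, read 4.59, 4.82 and 5.21 in Alpha1, against 7.14, 7.15 and 7.09 in T210A, and was 4.76-fold lower (-2.25 ± 0.13, adjusted p = 3.17e-08). CRC1, which encodes the mitochondrial carnitine carrier, read 4.33, 4.37 and 5.33 in Alpha1, against 6.25, 6.10 and 6.25 in T210A (-1.52). PEX21, for peroxisomal import, was 2.46-fold lower (-1.30), and CAT2, another carnitine acetyltransferase gene, 2.19-fold lower (-1.13). The first oxidation enzyme, POX1, was lower by 1.48-fold with overlapping groups. The 6-array fit ended the calls of CAT2 and POX1, and the block that of CRC1. The list's median depended on 1 culture, since it was 0.01 without Alpha1 replicate 1, with 2 genes higher and 9 lower. Of 39 respiratory chain and ATP synthase genes none was higher by limma, also at an unadjusted p under 0.05, and 12 were lower, with a median of -0.22. Without Alpha1 replicate 1, 2 or 3 the lower genes numbered 7, 6 or 19, centring the arrays on their medians left 5, and array weights left 3. Of 16 TCA cycle genes none was higher, also at an unadjusted p under 0.05, and 5 were lower. Without Alpha1 replicate 1 these TCA counts were 1 higher and 3 lower, and without Alpha1 replicate 2 they were 2 and 4.

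Phospholipid synthesis genes were among those higher in the fusion strain. INO1 (YJL153C), which makes the inositol used for phospholipids, read 11.82, 12.15 and 11.89 in Alpha1, against 8.95, 9.35 and 8.92 in T210A and 10.35, 10.53 and 10.33 in Snf1. The Alpha1 cultures lay above both other strains, 7.36-fold above T210A (2.88 ± 0.24, adjusted p = 7.63e-07). At high glucose the difference was 0.31 and not called. Of 22 genes for inositol and phospholipid synthesis 12 were higher (54.5%) and 1 was lower, with a median of 0.41. PSD1, which makes phosphatidylethanolamine in mitochondria, read 8.76, 9.42 and 8.98 in Alpha1, against 7.10, 7.43 and 7.06 in T210A (1.85 ± 0.19). CDS1, which makes the shared precursor CDP-diacylglycerol, was 3.10-fold higher (1.63). CHO1, the phosphatidylserine synthase gene, read 10.61, 10.98 and 11.07 in Alpha1, against 9.45, 9.33 and 9.39 in T210A (1.50). The choline kinase gene CKI1 (1.39), the inositol transporter gene ITR1 (1.35) and the choline transporter gene HNM1 (1.28) also rose. The lower gene was PCT1, of phosphatidylcholine synthesis (-0.34), whose call was lost in the 6-array fit with the block. INM1, which releases free inositol and lies on chromosome VIII, was 6.82-fold lower and is described with that chromosome.

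Fatty acid synthesis genes differed less. ACC1, which encodes the acetyl-CoA carboxylase that Snf1 phosphorylates, read 12.17, 12.20 and 12.08 in Alpha1, against 11.54, 11.74 and 11.72 in T210A. The groups did not overlap, and the difference was 1.40-fold (0.48 ± 0.06, adjusted p = 2.17e-05). In the 6-array fit with the replicate block its adjusted p from limma was 0.0541. ELO2, for fatty acid elongation, was 2.80-fold higher (1.49), and FAS1, a fatty acid synthase gene, 1.68-fold higher (0.75). Of 14 genes in the list 4 were higher (28.6%) and 1 lower (7.14%). Of 23 ergosterol synthesis genes 7 were higher (30.4%) and 3 lower (13.0%). Over all genes outside chromosome VIII 21.7% were higher and 18.4% lower.

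Some glycogen genes were higher. GSY1, a glycogen synthase gene, read 8.89, 8.39 and 9.05 in Alpha1, against 5.88, 6.05 and 5.96 in T210A and 9.71, 9.83 and 9.81 in Snf1. It was 7.02-fold higher than in T210A (2.81 ± 0.13, adjusted p = 5.79e-09). Of 17 glycogen genes 6 were higher (35.3%) and 2 lower (11.8%), and the 6-array fit left 2 higher. GAC1, which encodes a phosphatase subunit for glycogen synthase, was 2.63-fold higher (1.39), and the phosphorylase gene GPH1 was 1.87-fold higher (0.90). The calls of GAC1 and GPH1 were lost when the 6 arrays were fitted alone. MRK1, a kinase gene of the glycogen synthase kinase 3 family, read 6.91, 6.22 and 8.44 in Alpha1, against 3.29, 3.88 and 3.71 in T210A and 9.35, 9.57 and 9.59 in Snf1 (3.56 ± 0.38, adjusted p = 7.31e-06). With the replicate block in the 6-array fit its adjusted p from limma was 0.051. YMR206W, whose function is not known, read 7.10, 6.02 and 8.15 in Alpha1, against 2.33, 2.38 and 2.76 in T210A, with T210A close to the lowest values of the arrays. SUC2, MRK1 and YMR206W shared an order within Alpha1, with replicate 3 highest and replicate 2 lowest.

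Amino acid synthesis had the largest share of lower genes among the lists. Of 60 measured genes outside chromosome VIII, 41 were lower (68.3%) and 7 were higher, with a median of -0.66, and the medians of the 3 Alpha1 cultures relative to the T210A mean were -0.49, -0.84 and -0.67. CPA1, for arginine precursors, read 9.23, 9.47 and 9.68 in Alpha1, against 11.37, 11.60 and 11.48 in T210A and 8.57, 8.89 and 8.82 in Snf1. It was 4.06-fold lower (-2.02 ± 0.15, adjusted p = 2.72e-07). YOR302W, the short upstream reading frame of CPA1, was lower as well (-2.65 ± 0.60). HIS3, for histidine, read 9.62, 9.18 and 9.76 in Alpha1, against 11.36, 11.37 and 11.50 in T210A (-1.89). ARG7 (-1.83) and ARG3 (-1.70), both for arginine, were 3.55-fold and 3.24-fold lower, and in each the strains did not overlap, although the call of ARG3 was lost in the 6-array fit with the block. GCN4, the activator of these genes, read 11.40, 11.72 and 11.43 in Alpha1, against 11.78, 12.13 and 11.72 in T210A. It was not called (-0.36, adjusted p = 0.0982 by limma). With the replicate block in the fit of all groups, or arrays centred on the median outside chromosome VIII, GCN4 was called lower. At high glucose limma called none of the 60 genes, with 1 higher and 2 lower at an unadjusted p under 0.05. In the test of the difference between glucose levels 35 were lower and 4 higher. Over all 5188 genes outside chromosome VIII that test called 485 lower and 561 higher.

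Amino acid uptake held the largest single decrease. BAP3 (YDR046C), a permease gene for branched-chain amino acids, read 2.57, 4.16 and 2.98 in Alpha1, against 9.14, 9.23 and 9.13 in T210A and 3.50, 4.13 and 3.99 in Snf1. The T210A cultures stood apart from both other strains. The fitted difference was 60.9-fold (-5.93 ± 0.29, adjusted p = 8.37e-09), with the Alpha1 mean close to the lowest values of the arrays, so the fold is uncertain. GNP1, a glutamine permease gene, read 4.09, 3.88 and 3.51 in Alpha1, against 6.31, 6.45 and 6.28 in T210A (-2.52). ALP1, for basic amino acids, and DIP5, for acidic ones, were lower (-1.84 and -1.82), with Alpha1 means close to the lowest values of the arrays. Of 23 permease genes 8 were lower and 5 higher. Those higher included the proline permease gene PUT4, at 6.51, 5.21 and 6.39 in Alpha1, against 4.21, 3.78 and 4.10 in T210A (2.01). GAP1, the general amino acid permease gene, read 5.72, 4.85 and 4.58 in Alpha1, against 3.46, 3.41 and 3.57 in T210A (1.57). The call of GAP1 was lost in the 6-array fit with the block. PUT4 and GAP1 are repressed by good nitrogen sources. Of 36 genes under that nitrogen control 14 were higher (38.9%) and 5 lower (13.9%), against 21.7% and 18.4% over all genes outside chromosome VIII. Among the higher ones were DAL3, for allantoin breakdown (1.94), and the ammonium permease gene MEP2 (1.62). At high glucose 7 of the 36 were called higher, against 82 of all 5188. The high-glucose differences of DAL3 (0.86), MEP2 (1.09) and GAP1 (0.81) were called. The change between glucose levels was called for DAL3 but not for MEP2 or GAP1.

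Sulfur genes were divided. SUL1, a sulfate permease gene, read 10.51, 10.22 and 10.36 in Alpha1, against 7.48, 7.57 and 7.44 in T210A and 10.63, 10.70 and 10.63 in Snf1 (2.87 ± 0.08, adjusted p = 5.49e-11). MHT1, which makes methionine from S-methylmethionine, and MMP1, its permease gene, were higher (2.09 and 1.62). STR2 and STR3, which convert between cysteine and homocysteine, were lower (-1.50 and -1.22). Of 29 genes in the list 10 were higher and 10 lower. Of 19 genes for vitamin B6 and thiamine 1 was higher and 9 were lower, with a median of -0.55, which was -0.20 without Alpha1 replicate 1. The vitamin B6 gene SNO1 read 4.07, 3.57 and 4.02 in Alpha1, against 7.50, 7.48 and 7.67 in T210A (-3.67 ± 0.18). Its divergently transcribed partner SNZ1 read 7.18, 6.75 and 7.36 in Alpha1, against 9.91, 9.78 and 10.08 in T210A (-2.83). SNO1 and SNZ1 have close relatives in the genome that their probe sets may also read. BIO3, for biotin, was 6.41-fold lower (-2.68), with 4.22, 4.78 and 4.51 in Alpha1, against 7.03, 7.22 and 7.29 in T210A. PHO84, the high-affinity phosphate transporter gene, read 3.67, 6.37 and 5.73 in Alpha1, against 8.06, 8.17 and 8.03 in T210A (-2.83 ± 0.48). It was also lower at high glucose (-2.28), and its call at low glucose was lost in the 6-array fit with the replicate block (adjusted p = 0.0788 by limma). CTR3, a copper transporter gene, was 6.39-fold higher (2.68). Of 35 genes for metal uptake 6 were higher and 3 lower, or 15 and 3 without Alpha1 replicate 1.

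Protein synthesis and breakdown showed broad but smaller differences. Of 53 mitochondrial ribosome genes outside chromosome VIII, 46 were higher (86.8%), with a median of 0.57. By limma none was lower, also at an unadjusted p under 0.05. MRPL32 read 10.09, 9.58 and 9.79 in Alpha1, against 8.81, 8.58 and 8.88 in T210A (1.06), and MRPL39 was 2.05-fold higher (1.04). The list medians of the 3 Alpha1 cultures were 0.53, 0.36 and 0.77 above the T210A mean. Of 33 proteasome genes 26 were higher (78.8%), with a median of 0.61 and medians of 0.58, 0.58 and 0.60 in the 3 Alpha1 cultures. RPT2, an ATPase subunit gene, read 9.76, 9.88 and 9.60 in Alpha1, against 8.56, 8.81 and 8.75 in T210A (1.04), and PRE2, a catalytic subunit gene, was 1.82-fold higher (0.87). Both lower members were RPN4 (-0.44), which encodes the activator of proteasome genes, and RPN14 (-0.38), an assembly chaperone gene, and the calls of both were lost in the 6-array fit. Of 10 histone genes 8 were higher and none lower, also at an unadjusted p under 0.05 by limma, with a median of 0.75. The linker histone gene HHO1 read 9.07, 8.85 and 9.11 in Alpha1, against 7.84, 7.82 and 7.86 in T210A (1.17). Histone genes exist as similar copies, so single copies are uncertain.

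Ribosome genes depended on the culture and the fit. Of 121 ribosome assembly genes 54 were lower (44.6%) and 2 higher, with a median of -0.30 and medians of -0.38, -0.14 and -0.52 in the 3 Alpha1 cultures. The 6-array fit left 22 lower. Of 121 cytosolic ribosomal protein genes 31 were higher (25.6%), with a median of 0.25. By limma none was lower after adjustment and 2 were at an unadjusted p under 0.05. The list medians of the 3 Alpha1 cultures were 0.62, -0.02 and 0.11, so replicate 1 was high and the others were not. Without replicate 1, 17 genes were higher and 7 lower, and without replicate 2, 68 were higher. The 6-array fit in limma called none of the 121, with 9 higher at an unadjusted p under 0.05, and the replicate block in the fit of all groups gave 47 higher. RPS9A, a small-subunit gene, read 9.77, 9.03 and 9.20 in Alpha1, against 8.85, 8.72 and 8.74 in T210A (0.56), a call that the 6-array fit ended. Paralogous ribosomal protein genes can share signal.

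General stress genes were lower in 16 of 38 cases (42.1%) and higher in 4, with a median of -0.33. The medians of the 3 Alpha1 cultures were -0.67, -0.68 and 0.08, so replicate 3 stood apart from the others. Without it 25 genes were lower and 3 higher, with a median of -0.68. HSP30, a plasma membrane stress protein gene, read 9.83, 10.09 and 11.37 in Alpha1, against 13.08, 13.03 and 13.15 in T210A and 9.65, 10.09 and 10.02 in Snf1 (-2.66 ± 0.31, adjusted p = 1.80e-05). NQM1, a transaldolase-like gene, read 6.25, 7.42 and 8.14 in Alpha1, against 9.69, 9.45 and 9.64 in T210A (-2.32). SIP18 (-2.18), of the response to drying, and the transketolase gene TKL2 (-2.04) were lower. The catalase gene CTT1 read 6.29, 6.65 and 8.06 in Alpha1, against 8.65, 8.85 and 8.76 in T210A (-1.75). The calls of NQM1 and SIP18 were lost in the 6-array fit with the replicate block, and those of TKL2 and CTT1 already without it. Of 33 chaperone genes 7 were higher and 4 lower, a count that became 7 and 14 without Alpha1 replicate 2.

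More cell surface and mating genes were lower than higher. Of 45 cell wall genes 14 were lower (31.1%) and 8 higher (17.8%), against 18.4% and 21.7% over all genes outside chromosome VIII. Without Alpha1 replicate 1 the counts were 10 lower and 8 higher, and the 6-array fit left 5 lower and 3 higher. PIR3, a wall protein gene, read 5.54, 7.54 and 7.45 in Alpha1, against 9.29, 9.26 and 9.18 in T210A (-2.40), with replicate 1 below the others. YPS3, a yapsin protease gene, read 4.03, 7.22 and 4.96 in Alpha1, against 7.78, 7.97 and 7.63 in T210A (-2.39), with replicate 2 above the others. Their calls were lost in the 6-array fit with the replicate block, that of YPS3 also without the block. UTR2, which links chitin to glucan, read 9.59, 9.39 and 8.99 in Alpha1, against 7.43, 7.43 and 7.35 in T210A (1.92 ± 0.14). FLO11, the adhesin gene for invasive growth, read 5.46, 4.84 and 5.83 in Alpha1, against 6.24, 6.38 and 6.60 in T210A and 8.04, 8.44 and 8.33 in Snf1 (-1.03). It was also lower at high glucose (-1.89). Of 25 mating and pheromone genes 13 were lower (52.0%), with a median of -0.27. By limma none was higher, also at an unadjusted p under 0.05. AGA2, an agglutinin gene, read 2.26, 2.38 and 2.38 in Alpha1, against 4.56, 4.08 and 4.58 in T210A, with Alpha1 close to the lowest values. The pheromone gene MFA1 (-1.57), the receptor gene STE2 (-0.92) and the kinase gene FUS3 (-0.85) were lower too. The 6-array fit ended the calls of FLO11 and STE2, and the block that of MFA1.

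Of 17 genes of the Ras and protein kinase A pathway 2 were higher (11.8%) and 1 was lower (5.88%), with a median of 0.00. PDE1, which breaks down cAMP, read 7.80, 8.19 and 8.19 in Alpha1, against 10.26, 10.19 and 10.18 in T210A and 8.10, 8.16 and 8.08 in Snf1, a 4.44-fold difference (-2.15 ± 0.09, adjusted p = 1.82e-09). RAS1, which activates adenylate cyclase, was 1.95-fold higher (0.96). Of 33 autophagy genes 3 were higher and 1 was lower, or 9 and 1 without Alpha1 replicate 1 and 2 and 5 without Alpha1 replicate 2. The lower one, ATG41, read 9.58, 9.95 and 10.01 in Alpha1, against 11.93, 11.81 and 11.96 in T210A (-2.05 ± 0.09). PCL1, a G1 cyclin gene, read 5.12, 6.13 and 4.84 in Alpha1, against 3.82, 3.53 and 3.86 in T210A (1.62), a call lost in the 6-array fit with the block. Among the aryl-alcohol dehydrogenase genes, AAD6 read 7.43, 9.39 and 7.87 in Alpha1, against 4.01, 4.09 and 4.01 in T210A (4.19 ± 0.40), and AAD10 was 3.99-fold lower (-1.99). Members of that family are similar in sequence, so the signals may be shared. AAD6 also differed at high glucose (1.81).

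The other genes with the largest differences belonged to none of these groups. RSB1, which exports sphingoid bases, read 6.70, 6.16 and 7.12 in Alpha1, against 3.88, 3.52 and 4.25 in T210A (2.78 ± 0.20). KNH1, for cell wall glucan, read 7.19, 7.41 and 7.03 in Alpha1, against 4.40, 4.41 and 4.74 in T210A (2.69 ± 0.12). In the Snf1 cultures RSB1 read 7.55, 7.79 and 7.76, above all Alpha1 cultures, and KNH1 read 7.40, 7.29 and 7.07, within the Alpha1 range. BAG7, which encodes a GTPase-activating protein for Rho1, read 2.26, 2.93 and 2.86 in Alpha1, against 6.51, 6.81 and 6.54 in T210A and 2.72, 3.17 and 3.36 in Snf1. ROG3, an arrestin-related gene, read 4.07, 4.78 and 4.46 in Alpha1, against 7.04, 7.26 and 7.26 in T210A, with the Snf1 mean at 4.31. In both genes T210A was the strain that stood apart, and the same held for SRL4, YDR222W, TDA6, NCA3 and YAL037C-A. Their differences were -3.28, -2.96, -2.69, -2.65 and -2.56. The Alpha1 means of BAG7, SRL4, NCA3 and YAL037C-A were close to the lowest values of the arrays, so their folds are uncertain.

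**Figure D3:**
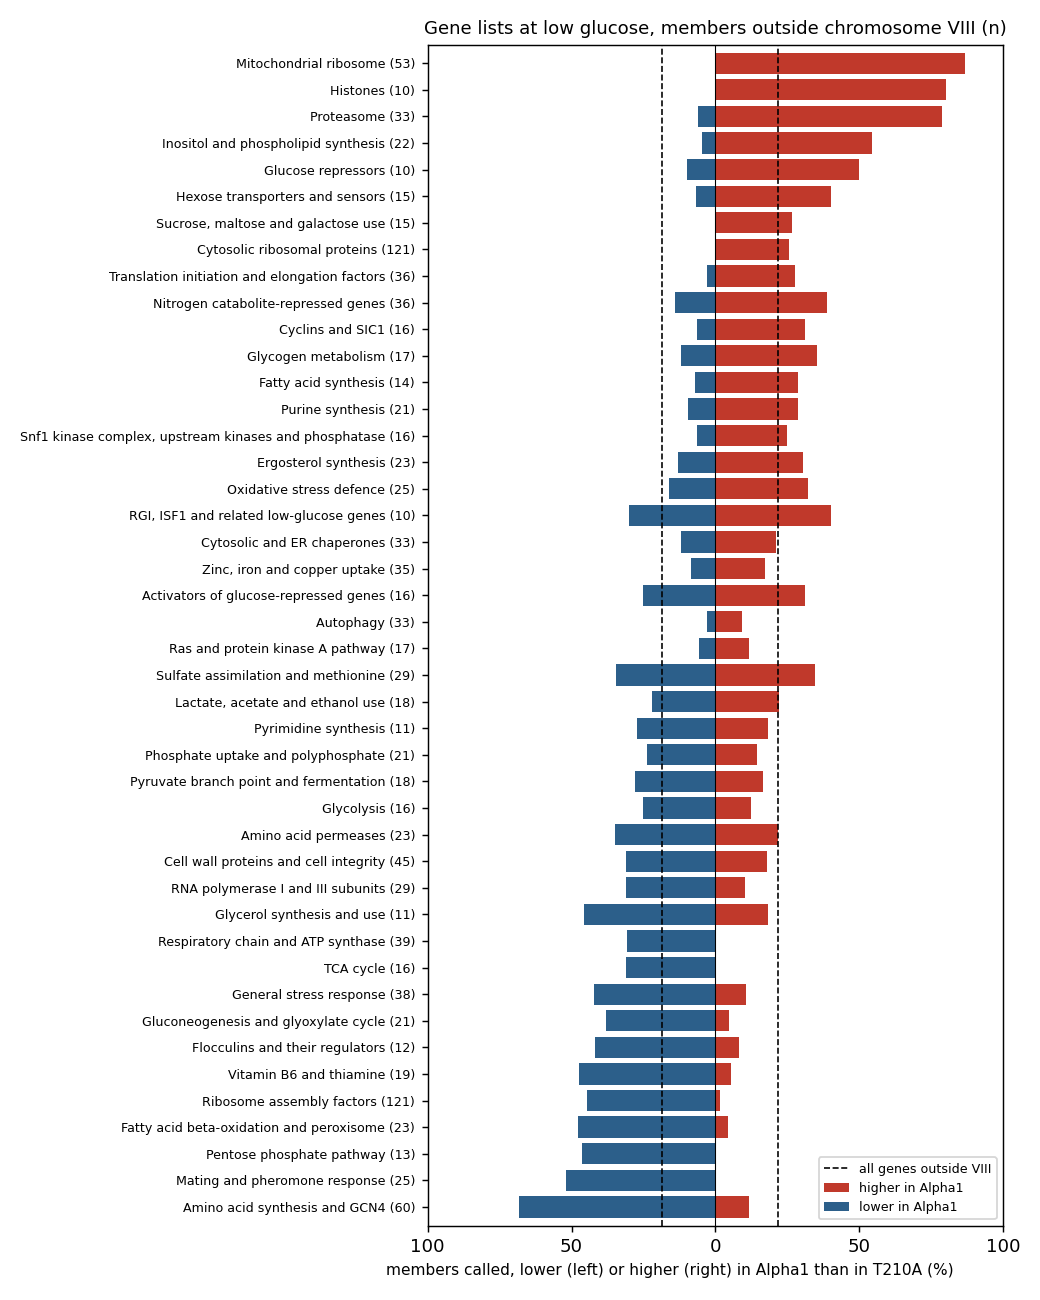
Share of measured members outside chromosome VIII that were called higher (right, red) or lower (left, blue) in Alpha1 than in T210A at low glucose, for each gene list of at least 10 members. Dashed lines mark the shares over all 5188 genes, 21.7% higher and 18.4% lower; mitochondrial ribosome, histone and proteasome lists lie farthest right and amino acid synthesis farthest left.

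Chromosome VIII genes were lower together. Of 261 measured genes on that chromosome, 178 were called lower (68.2%) and 7 higher (2.68%), and 69.3% had all Alpha1 arrays below all T210A arrays. The genes had a median difference of -0.61, while the medians of the other 15 chromosomes ran from -0.01 to 0.06. Both arms were shifted, by -0.53 over 45 genes on the left and by -0.61 over 216 on the right. In each array the median of chromosome VIII minus the rest was set against the Snf1 arrays at the same glucose level. It was 0.05, -0.01 and 0.02 in the Alpha1 arrays, against 0.52, 0.60 and 0.61 in the T210A arrays. The T210A arrays thus stood above Snf1 and the Alpha1 arrays did not, with means of 0.02 and 0.58 (SD 0.03 and 0.05, n = 3 each). The exact two-sided permutation p was 0.1, the smallest that 3 against 3 arrays allow. At high glucose the T210A arrays read 0.75, 0.76 and 0.72 and the chromosome's median difference was -0.74. In bulk RNA, a change in the number of cells of a kind and a change in RNA per cell cannot be told apart, and whether the number of copies of the chromosome differed was not tested. Differences of single chromosome VIII genes are therefore given beside the shift of -0.61.

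**Figure D4:**
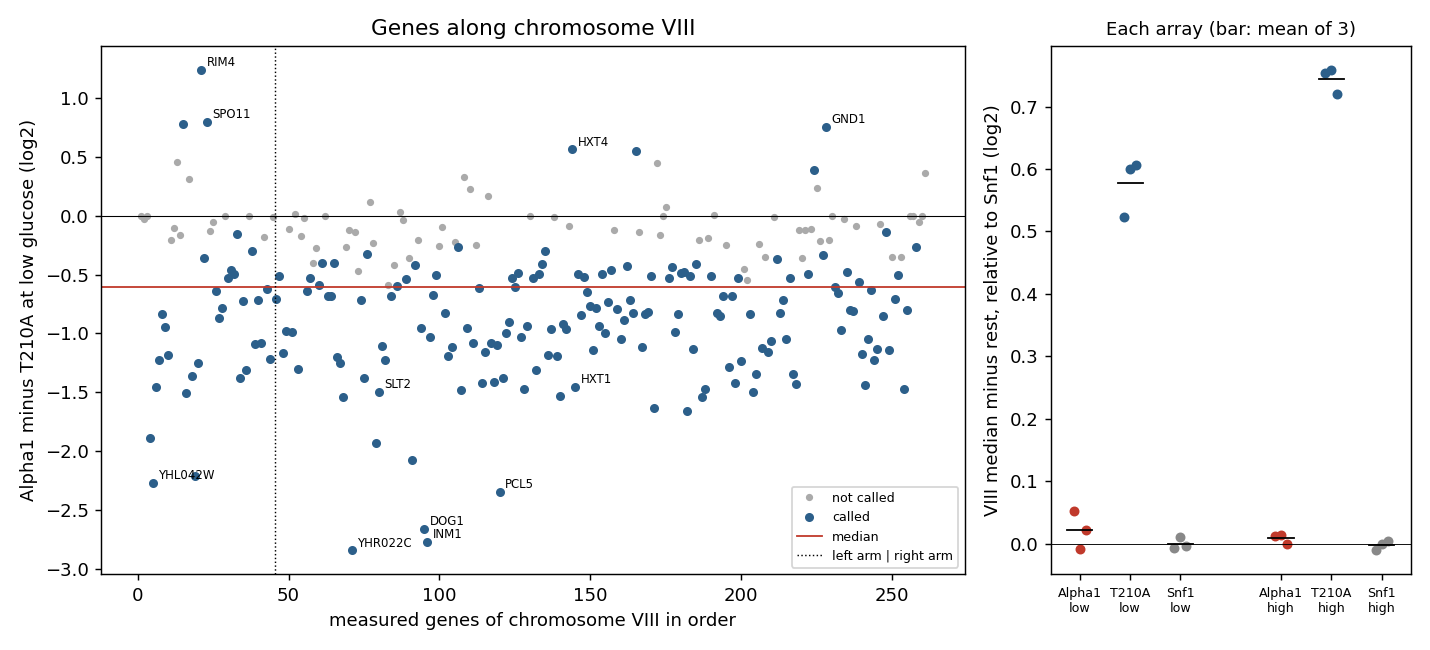
Left, the difference between Alpha1 and T210A at low glucose (log2) for the 261 measured genes in their order along chromosome VIII, with called genes in blue, the median of -0.61 as a red line and the boundary of the arms dotted. Right, the median of chromosome VIII minus the rest in each array relative to Snf1, where the T210A points lie between 0.52 and 0.76 and all others close to 0.

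Some chromosome VIII genes differed by much more than the shift. INM1, the inositol monophosphatase gene, read 6.75, 7.49 and 6.63 in Alpha1, against 9.75, 9.57 and 9.86 in T210A and 5.02, 5.23 and 4.97 in Snf1 (-2.77 ± 0.17, adjusted p = 6.01e-08). PCL5, which encodes a cyclin that promotes Gcn4 breakdown, read 8.01, 7.57 and 8.40 in Alpha1, against 10.33, 10.46 and 10.21 in T210A (-2.34). DOG1, a sugar phosphatase gene, read 4.31, 6.94 and 4.79 in Alpha1, against 8.05, 7.90 and 8.07 in T210A (-2.66), with 1 Alpha1 culture far above the others. Its call was lost when the 6 arrays were fitted alone. YHR022C (-2.84) and YHL042W (-2.27) were called lower with signals close to the lowest values of the arrays in Alpha1. SLT2, the kinase of the cell integrity pathway, read 6.99, 8.62 and 7.76 in Alpha1, against 9.15, 9.51 and 9.20 in T210A (-1.50). It was as far lower at high glucose (-1.59), and its call at low glucose was lost when the 6 arrays were fitted alone. Against the direction of the chromosome, RIM4, a meiotic RNA-binding protein gene, read 7.03, 6.73 and 6.83 in Alpha1, against 5.66, 5.72 and 5.50 in T210A (1.24 ± 0.15, adjusted p = 2.18e-05). SPO11, for meiotic DNA breaks (0.80), ECM29, for proteasome assembly (0.78), GND1, of the pentose phosphate pathway (0.76), and the glucose transporter gene HXT4 (0.56) were higher too. The groups overlapped for GND1, whose call was lost in the 6-array fit, and the calls of SPO11, ECM29 and HXT4 were lost with the block.

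For part of the genes the strain difference depended on the glucose level. In the test of the low-glucose difference minus the high-glucose difference 1106 genes were called (20.3%), of which 1046 lay outside chromosome VIII (20.2% of the genes there). CWP1, a cell wall mannoprotein gene, changed direction. It read 9.02, 10.17 and 9.96 in Alpha1, against 7.98, 7.91 and 7.97 in T210A at low glucose (1.76 ± 0.21), and it was lower in Alpha1 at high glucose (-1.99). Its call at low glucose was lost in the 6-array fit with the block. The difference between the levels was 3.75 (adjusted p = 2.30e-06 by limma). YNR068C, whose function is not known, was lower at low glucose (-2.33) and not called at high glucose (0.81). Among the genes that differed at both levels were DET1, SNF1, URA3 and PHO84. SUL1 (0.95), CTR3 (1.12), KNH1 (0.67) and CHO1 (0.39) were also called higher at high glucose.

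**Figure D5:**
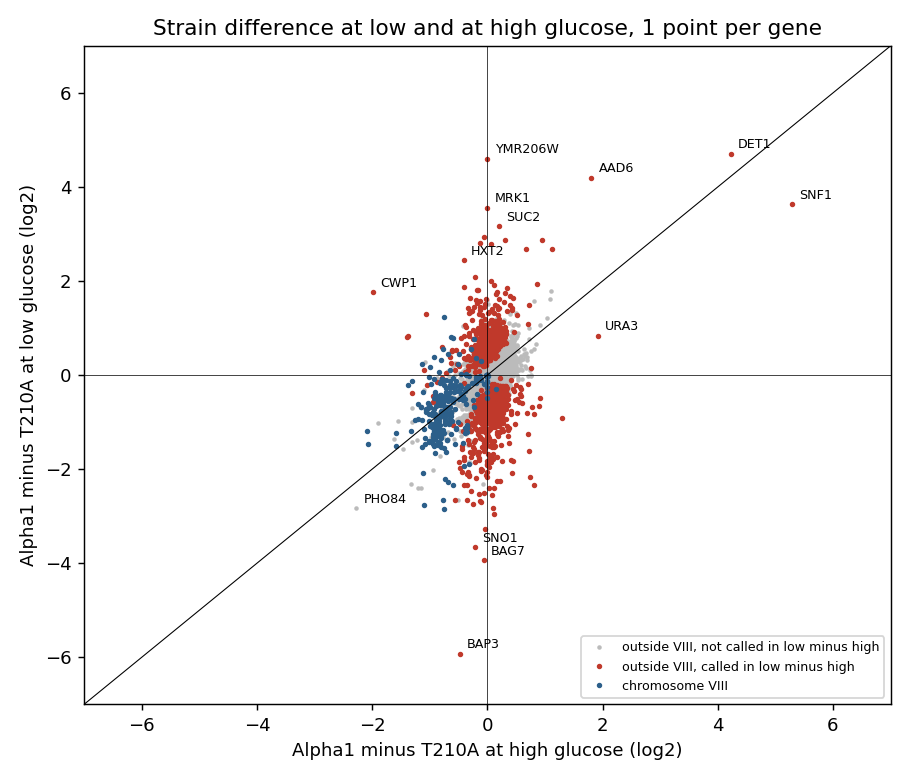
Difference between Alpha1 and T210A (log2) at low glucose on the vertical axis and at high glucose on the horizontal axis, with 1 point per gene and the diagonal as the line of equal difference. Red points are called in the test of low minus high glucose, blue points lie on chromosome VIII, and DET1 and SNF1 stand far out on both axes while BAP3, YMR206W and SUC2 differ along the vertical axis.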

How the data were processed

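RNA from the cultures was hybridized to Affymetrix yeast arrays. The authors deposited a log2 signal for each probe set, and the submitters' processing notes name RMA and the affy package, with no version. The log2 values, from 2.25 to 14.3, were used as given. Of 5716 probe sets, 5498 were paired with 1 gene and 218 with none, and 12 symbols were brought up to date. Where a gene had several probe sets (47 genes), the one with the highest mean over the 18 arrays stood for it. Probe sets of near-identical genes may read each other's transcripts. The number of arrays limits the precision.

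A limma 3.58.1 model (R 4.3.3) gave each of the 6 groups its own mean over the 18 arrays. It had 12 residual degrees of freedom, and the prior degrees of freedom were 1.18. Adjustment by Benjamini-Hochberg covered 5449 genes, with 0.05 as the threshold for a call. The SE pools the variance over all groups, so it understates the error of genes that varied in Alpha1 at low glucose. Means below 3.25, a line set 1 log2 unit over the mean of the arrays' lowest signals, are described as close to the lowest values. No 2 arrays were identical (smallest SD of a difference 0.147).

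The 48 gene lists, the named genes and the comparison itself were chosen with earlier results of these data known. Named were the 15 largest called differences in each direction outside chromosome VIII whose arrays did not overlap, the 5 largest in each direction on it, the 6 largest in each direction in the test of low minus high glucose, 22 anchor genes such as SUC2 and INO1, up to 4 called members of each list with the largest differences, and members of lists of at most 20 genes. CKI1, ITR1, HNM1, PCT1, RPN4, RPN14, GCN4, POX1, FUS3, MMP1 and DIP5 were named after their values were seen.

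Deviations of arrays with the same replicate number from their group means correlated across genes at 0.13, 0.16 and 0.23 between Alpha1 and T210A at low glucose. All 3 were above the limit of 0.1 that was set for pairing, so the numbers were taken to pair these arrays, from the data and not from the labels. Correlations of this size are weak and do not establish a pairing, and the main fit did not use it. At high glucose the correlations were 0.17, 0.53 and -0.24, so pairing was not taken to hold there, although the block in the fit of all groups assumes it. The alternatives were the 6 arrays fitted alone, the replicate number as a block, other scalings, filters, array weights and the omission of each array. The fit of the 6 arrays with the block was added after the data had been seen. The procedure was run on simulated data with independent noise and the same SD of a gene in all groups. Such data could not show the effect of the wider spread in Alpha1 at low glucose, or of shifts shared by the genes of an array.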

Additional observations from a re-analysis of the deposited data

Results flagged for a closer look

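In limma's test of the difference itself, the Alpha1 minus T210A difference at low glucose was not the same as that at high glucose for 1106 of 5449 genes. The genes named in the report that were among them follow, with the low-glucose difference minus the high-glucose one on the log2 scale.

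Genes outside chromosome VIII with a more positive difference at low glucose were YMR206W (4.60), CWP1 (3.75), MRK1 (3.56), REG2 (3.004), SUC2 (2.96), GSY1 (2.94), HXT2 (2.86), RSB1 (2.71), INO1 (2.58), AAD6 (2.39) and MHT1 (2.30). To a smaller degree the same held for KNH1 (2.02), SUL1 (1.92), MIG1 (1.60), CTR3 (1.55), HXK1 (1.45), HXK2 (0.97), CAT8 (0.82) and ACC1 (0.49). SUC2, HXT2, HXK1 and MIG1 among these belong to glucose repression and sugar uptake. CWP1 was higher in Alpha1 at low glucose and lower at high glucose.

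Genes outside chromosome VIII with a more negative difference at low glucose were BAP3 (-5.45), BAG7 (-3.88), SNO1 (-3.45), SRL4 (-3.24), YNR068C (-3.15), YDR222W (-3.07), SNZ1 (-2.93) and YAL037C-A (-2.65). They also included TDA6 (-2.58), BIO3 (-2.55), ROG3 (-2.50), GNP1 (-2.37), NCA3 (-2.30) and HSP30 (-2.09). BAP3 and GNP1 encode amino acid permeases, and SNO1 and SNZ1 act in vitamin B6 synthesis.

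On chromosome VIII the difference was more positive at low glucose for RIM4 (1.99), SPO11 (1.42), ECM29 (1.39), GND1 (0.98) and HXT4 (0.84), and more negative for YHR022C (-2.09), PCL5 (-1.75), INM1 (-1.67), YHL042W (-1.58) and HXT1 (-1.03). Among genes that differed at both glucose levels, DET1 differed slightly more at low glucose (0.48), and SNF1 (-1.65) and URA3 (-1.08) differed less. SUL1, KNH1, CTR3 and AAD6, listed above, were also called higher in Alpha1 at high glucose.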

How the results depend on the processing

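No alternative turned the direction of a called difference among the genes followed by name, or of the median on chromosome VIII. Among uncalled genes, the differences of JEN1 (-0.23), MAL32 (-0.23), MLS1 (-0.29) and MIG2 (0.27) turned without Alpha1 replicate 3. The median of the beta-oxidation genes turned to 0.01 without Alpha1 replicate 1, and more chaperone genes were lower (14) than higher (7) without Alpha1 replicate 2. Outside chromosome VIII the 2078 calls became 1107 (619 higher, 488 lower) when the compared groups were fitted alone, 607 (347 higher, 260 lower) when the replicate block was added to that fit, and 320 (119 higher, 201 lower) when a difference of at least 1 was also required. With the replicate block in the fit of all groups 2450 genes were called. Omission of 1 array gave 1700 to 2211. The share of higher genes among these calls was 54.1%, and it was 60.8% without Alpha1 replicate 1, 47.0% without Alpha1 replicate 2 and 37.2% with the fold minimum. On chromosome VIII the 185 calls became 97 in the fit of the compared groups with the replicate block and 74 with the fold minimum, and omission of 1 array gave 167 to 190. The chromosome's median difference of -0.61 became -0.68 over genes with a mean of at least 5 and ran from -0.67 to -0.58 without 1 array. The 1106 calls in the test of low minus high glucose became 298 with the fold minimum, 1470 with the replicate block, and 908 to 1409 without 1 array. Of 155 called genes among the 166 followed by name, 72 kept the call in every alternative, 37 lost it when the compared groups were fitted alone and 74 when the replicate block was added to that fit. The replicate block in the fit of all groups lost no call of these genes and added that of GCN4. GCN4 was also called with the arrays centred on the median of genes outside chromosome VIII. The causes were not tested, except that the fits of 6 arrays have fewer samples and the fold minimum removes small differences by construction. Signals were close to the lowest values of the arrays for ADR1, ADH2 and FBP1 in both strains and for BAP3 in Alpha1. ADR1 and ADH2 were called without Alpha1 replicate 1, ADR1 also with the arrays centred on their medians. GLK1 was called without Alpha1 replicate 1 as well, and MAL32 and MIG2 without Alpha1 replicate 2.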
